A study of Mus musculus with 4 samples.

Results

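Notch signalling was examined here through 10 of its genes in a map of Foxr2 binding in a mouse brain tumour line. The genes were the receptors Notch1, Notch2 and Notch3, the ligands Dll1, Dll3 and Jag1, the DNA-binding factor Rbpj, and the target genes Hes1, Hes5 and Hey1. They were listed by name, out of 21938 protein-coding genes, with earlier results of these data known, and each was searched over its body and the 10 kb on either side. Foxr2 was carried into the mouse brain by in utero electroporation (IUE), together with p53 loss of function (LOF), and a neurosphere line was grown from a tumour. The Foxr2 vector carries a V5 tag, and tagged Foxr2 was mapped by CUT&RUN, in which an antibody directs a nuclease to cut the DNA at bound chromatin. The group Foxr2 p53LOF had 2 replicates of this line. The group V5 control had 2 replicates from a separate IUE model of genotype H3.3G34R that lacks the tag. Both groups were of strain C57BL/6J, and in both the same V5 antibody was used on 500000 cells per sample, fixed in 0.1% formaldehyde for 1 minute. The control line differs from the Foxr2 line in its tumour model as well as in the tag, so these cannot be told apart, and the overexpressed protein is not endogenous Foxr2.

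In the Notch pathway, a ligand on one cell binds a receptor on its neighbour, proteases then cut the receptor, and its intracellular part enters the nucleus. There it joins Rbpj on DNA, and genes of the Hes and Hey families are switched on. The Hes and Hey proteins are repressors that hold down proneural genes and, in the developing forebrain, keep radial glia and other progenitors from becoming neurons. Rbpj recognises the core TGGGAA, and Hes proteins bind the N-box CACNAG, where N is any base. Foxr2 is a forkhead factor that is silent in most normal tissues and is switched on in some brain tumours.

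The sequences below are those that the results turn on. In each, read 5′ to 3′, capitals mark the Rbpj core or the Hes N-box on either strand. The Hes5 and Rbpj stretches are shown because they were the promoters, of the 8 genes with an entry, that held the Rbpj core, and both are from RefSeq on build GRCm38.p6 (the same build as mm10), on the plus strand, which is the strand of both genes. The Hes5 stretch is chr4:154960673-154960922, the 250 bases before the start. The Rbpj stretch is chr5:53590096-53590213, the bases of the RefSeq entry that lie before the GENCODE transcript start at 53590214. The other stretches are the middle 200 bases of reproducible Foxr2 sites away from any start, printed on the plus strand of the same build. They are the strongest intronic site of Notch1, chr2:26487142-26487341, the strongest intronic site of Notch2, chr3:98043176-98043375, and the upstream site of Dll1, chr17:15380537-15380736.
Hes5 promoter: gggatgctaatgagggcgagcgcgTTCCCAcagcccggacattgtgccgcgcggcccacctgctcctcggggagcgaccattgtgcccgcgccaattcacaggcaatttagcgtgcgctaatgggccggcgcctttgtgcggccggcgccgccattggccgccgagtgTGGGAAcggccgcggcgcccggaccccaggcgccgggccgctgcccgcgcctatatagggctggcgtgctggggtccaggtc
Rbpj promoter: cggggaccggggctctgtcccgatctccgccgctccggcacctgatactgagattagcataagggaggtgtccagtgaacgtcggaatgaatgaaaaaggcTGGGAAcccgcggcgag
Notch1 intron: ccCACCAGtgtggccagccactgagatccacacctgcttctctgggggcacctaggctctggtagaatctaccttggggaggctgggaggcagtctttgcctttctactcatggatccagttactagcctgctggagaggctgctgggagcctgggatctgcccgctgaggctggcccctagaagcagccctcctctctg
Notch2 intron: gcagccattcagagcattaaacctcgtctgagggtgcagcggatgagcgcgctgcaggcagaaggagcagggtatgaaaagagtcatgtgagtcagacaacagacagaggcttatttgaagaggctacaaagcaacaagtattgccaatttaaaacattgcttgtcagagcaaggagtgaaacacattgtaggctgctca
Dll1 upstream: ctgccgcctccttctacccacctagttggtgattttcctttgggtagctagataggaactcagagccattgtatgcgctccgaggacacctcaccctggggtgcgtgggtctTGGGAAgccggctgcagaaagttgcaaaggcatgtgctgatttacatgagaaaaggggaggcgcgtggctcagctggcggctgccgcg
The Hes5 promoter held 2 Rbpj cores in opposite orientation, at positions -226 and -82 from the start, both as the longer form GTGGGAA. The Rbpj promoter entry held cores at positions -149 and -65 from its RefSeq start, and only the former lies in the printed stretch. The Dll1 upstream stretch held 1 core, the Notch1 intronic stretch held 1 N-box, and the Notch2 intronic stretch held neither.

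Depth in a peak list shows only as the fragments stacked at each summit. The deposited value used here is the fold enrichment of a peak, which is the number of fragments at the summit plus 1 over the library background plus 1. Foxr2 p53LOF replicate 1 had 31909 peaks with a median fold of 5.30, and replicate 2 had 38580 peaks with a median fold of 4.93. A fold above 6 needed 13 fragments in replicate 1 and 18 in replicate 2, so a fold near this minimum rests on few fragments. The V5 control lists held 308 and 124 peaks. In what follows, the term reproducible site is used for DNA over which both replicates had a peak after the study's filter: a fold and a −log10 q above 6, a length under 10000 bp and no overlap of 10 bp or more with a control peak. A peak or site is called promoter where it comes to 1 kb or less from a coding transcript start of the gene, and distal anywhere else in the region. There were 11943 reproducible sites in all, of which 7807 were near a protein-coding start. With 2 replicates of 1 line and 1 peak list for each, no test was made, and each fold is given with the 95% exact Poisson interval of its fragments where it matters, which covers counting error only.

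Foxr2 sites lay at most of the 10 genes, both at promoters and at distal positions. After the filter, 7 of 10 genes had a reproducible promoter site (Notch1, Notch2, Dll1, Jag1, Rbpj, Hes1 and Hey1), against 39.2% of all protein-coding genes. This count was 5 when told by the replicate 1 summit, against 37.4% of all genes, as the sites of Notch1 and Rbpj then counted as distal. Reproducible distal sites were found at 5 of 10 (Notch1, Notch2, Dll1, Dll3 and Hes5), against 25.8% of all genes. With sites at the start of another gene left out, distal sites remained at 3 genes (Notch1, Notch2 and Dll1), against 11.0% of all genes, and with the gene body alone at 2 (Notch1 and Notch2), against 8.54%. Counting either kind, 9 of 10 had a site in the region, against 50.0% of all genes, and Notch3 was the exception. This count was 7 with sites at another gene's start left out, against 43.7%. None of the 10 had a peak in either control list, in which 0.556% of all genes had one. These shares describe genes chosen by name, and long gene regions have more room for distal peaks.

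Before any minimum on fold, the picture was broader. All 10 genes had overlapping peaks of both replicates somewhere in the region, against 62.6% of all genes. The overlap was at the promoter of 8, against 50.9%, and at a distal position of 8, against 41.2%. At Notch3 it joined only the edges of weak peaks past the 3′ end, and at Dll3 it lay at the start of the neighbouring gene Timm50. At Hey1 the distal overlap joined a replicate 1 peak with a fold of 3.98 to the inner end of the replicate 2 promoter peak. Replicate 1 held 29 peaks in the 10 regions, 8 at promoters and 21 distal. Replicate 2 held 41 peaks, 11 at promoters and 30 distal. The minimum of 6 removed mostly distal peaks. It left 7 promoter and 9 distal peaks in replicate 1, and 9 promoter and 9 distal peaks in replicate 2. The share kept was thus 87.5% of promoter peaks and 42.9% of distal peaks in replicate 1, and 81.8% and 30.0% in replicate 2. Among all genes, 72.1% and 73.1% of peaks near a start and 24.1% and 21.7% of other peaks in gene regions passed the same minimum in replicates 1 and 2. Those other peaks leave out any within 1 kb of a protein-coding start. The distal peaks of the 10 genes include those at the starts of Timm50 and Pank4, which passed in both replicates. The distal shares are thus not defined alike, and that of the 10 genes is raised by these peaks. By gene, replicate 1 had a promoter peak at 8 of 10 before the minimum (53.2% of all genes) and at 7 after it (42.0%). Replicate 2 had one at all 10 before (54.2%) and at 8 after it (43.9%).

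**Figure D1:**
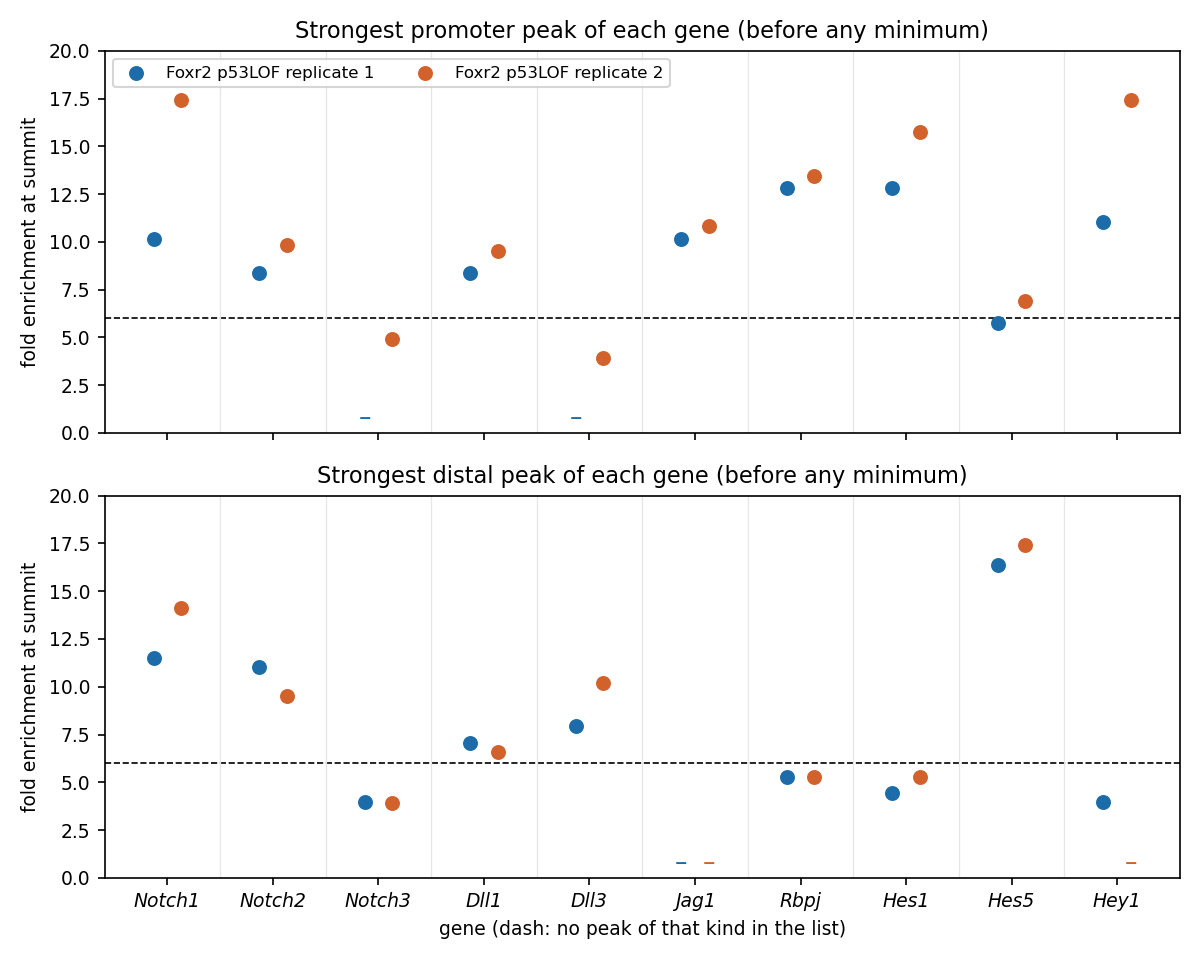
Fold enrichment at the summit of the strongest promoter peak (upper panel) and strongest distal peak (lower panel) of each gene in the 2 Foxr2 p53LOF replicates before any minimum, with a dashed line at the minimum of 6 and a dash where a list has no such peak. Both points lie above the line at the promoters of 7 genes, Hes5 straddles it at 5.74 and 6.90, and Notch3 and Dll3 have a promoter peak in replicate 2 alone.

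Among the receptors, Notch1 and Notch2 each had 3 reproducible sites and Notch3 had none. Notch1 (ENSMUSG00000026923.15, chr2:26457903-26516663, minus strand) has its main start at 26503822. Its promoter site, chr2:26500202-26504013, had folds of 10.2 (22 fragments, interval 6.53 to 15.2) and 17.4 (52 fragments, 13.1 to 22.7). The replicate 2 fold was the higher, with overlapping intervals, and the lower fold stood at the 56.3rd percentile of the sites near a start. The summits were not at the start itself but 2410 and 3382 bp inside the gene, both in intron 2. A second broad site in intron 2, chr2:26485589-26488896, had folds of 11.5 and 14.1, with summits 16135 and 16688 bp into the gene, and its lower fold stood at the 83.7th percentile of the sites away from a start. It stood above the promoter site of the same gene in replicate 1 (11.5 against 10.2) and below it in replicate 2 (14.1 against 17.4), so no order of the 2 sites is shown. Another site, in intron 15, chr2:26475650-26475933, was a 284 bp overlap of 2 peaks with folds of 6.19 and 6.24, just above the minimum, on 13 and 18 fragments. A further peak above the minimum, in replicate 1 alone, had a fold of 6.19 in the stretch between the main start and an alternative start at 26516663. That alternative start had no peak in either list.

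Notch2 (ENSMUSG00000027878.11, chr3:98013527-98150361, plus strand) had 3 sites of similar height. The promoter site, chr3:98012611-98014917, had folds of 8.39 and 9.86, with summits 98 bp inside and 350 bp before the start. The site in intron 1, chr3:98042515-98044038, had folds of 11.0 and 9.53, about 30 kb into the gene, and the site in intron 2, chr3:98062481-98064387, had folds of 9.72 and 8.54, about 50 kb in. In replicate 1 both intronic sites stood above the promoter, and in replicate 2 both stood below it. All these intervals overlap, so no order of the 3 sites is shown. A weaker pair of overlapping peaks, with summits 92988 and 91982 bp into the gene, had folds of 5.30 and 6.24, and only that of replicate 2 passed the minimum.

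Notch3 (ENSMUSG00000038146.8, chr17:32120820-32166852, minus strand) was the receptor with no site. Replicate 1 had a single peak in the region, past the 3′ end, with a fold of 3.98 on 8 fragments. Replicate 2 had 3 peaks: one near the promoter at 4.93 (14 fragments, interval 2.84 to 8.05) with its summit 1149 bp inside the gene, one in an intron at 2.96, and one past the 3′ end at 3.94. The 3′ peaks of both replicates overlapped only at their edges, that of replicate 1 ending at 32118177 and that of replicate 2 beginning at 32118161. All 4 folds were below the minimum. Binding too weak to be called a peak at this depth would not show in the lists. The 250 bases before its start were 68.8% G or C, between Notch1 at 66.0% and Notch2 at 72.0%, against a median of 56.0% over 20150 RefSeq promoters of protein-coding genes.

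**Figure D2:**
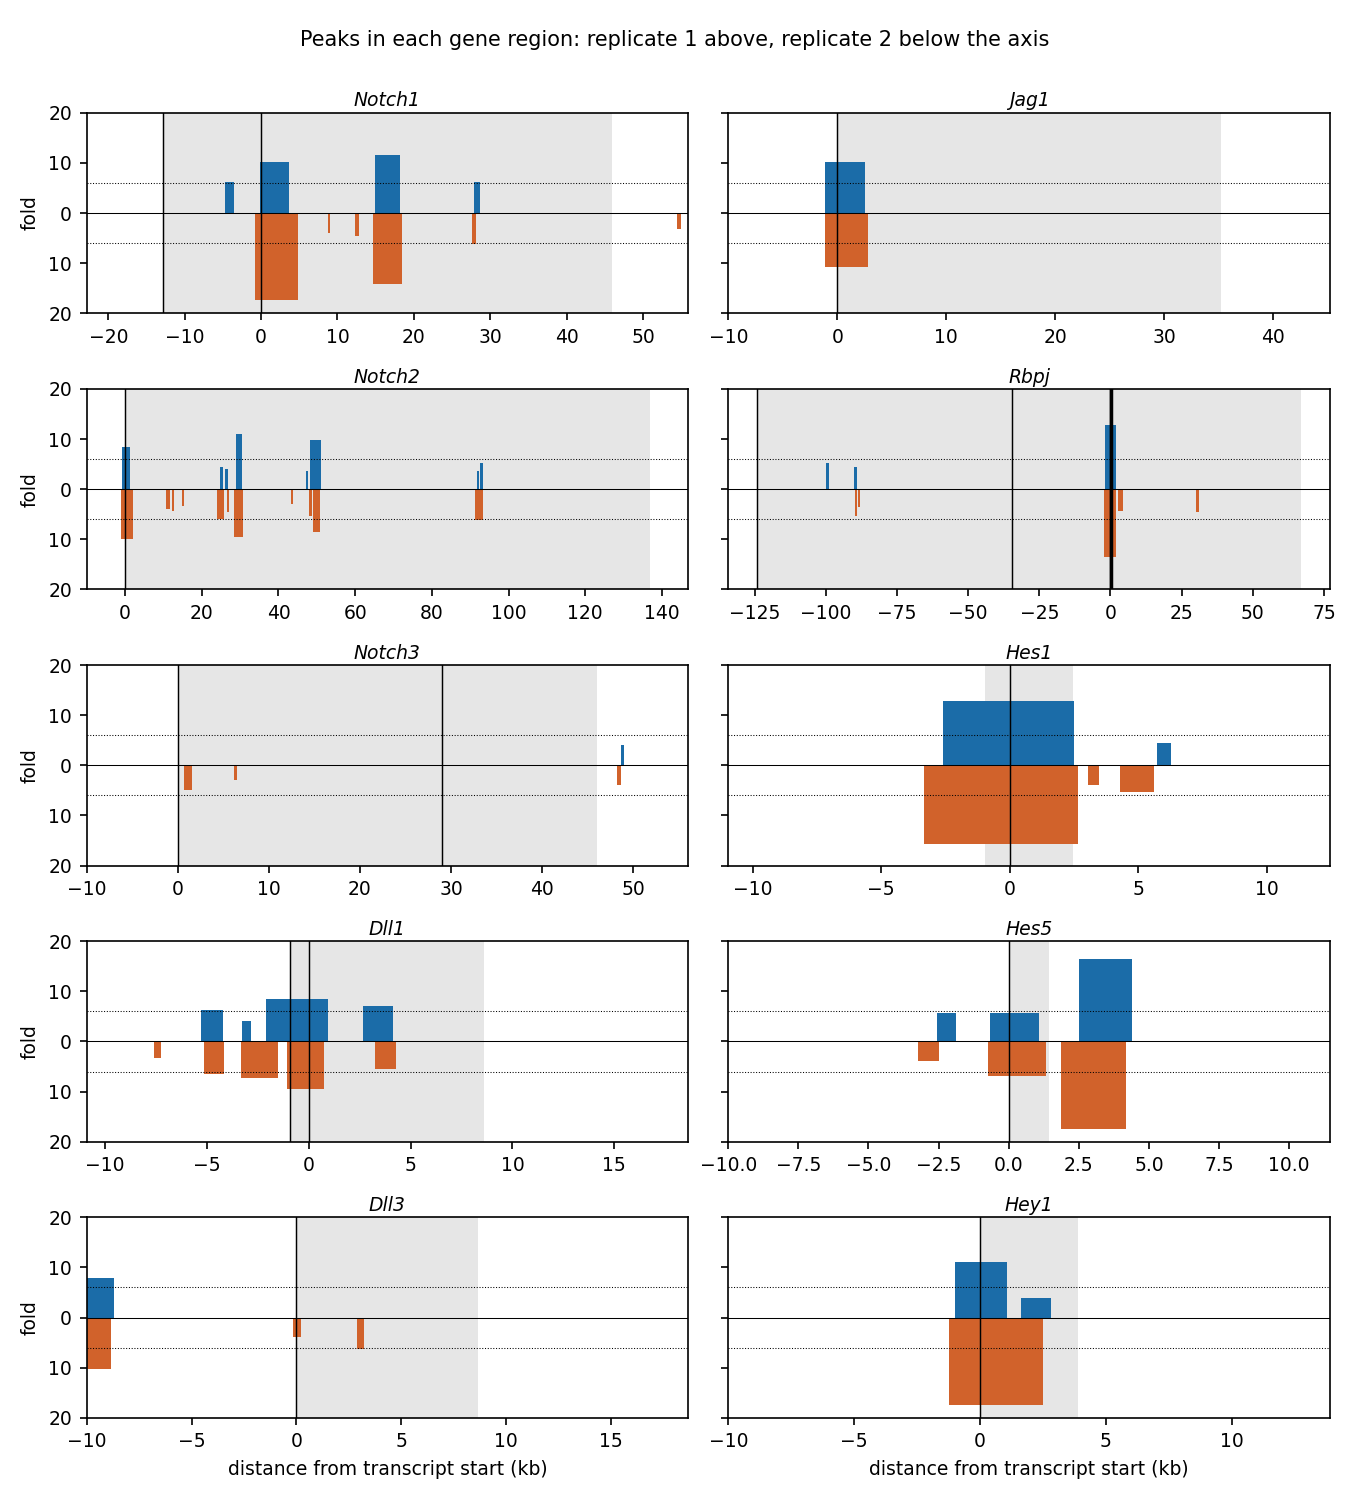
All peaks of the 10 gene regions before any minimum, plotted by distance from the transcript start in kb (positive into the gene), with the fold of replicate 1 drawn upward and that of replicate 2 downward, the gene body in grey, black lines at starts of protein-coding transcripts and dotted lines at a fold of 6; bar width is peak length, with a floor so that narrow peaks can be seen. Notch1 and Notch2 show tall intronic peaks in both replicates, Jag1 shows its promoter peak alone, and Notch3 has no bar that reaches 6.

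The ligands differed from each other. Jag1 (ENSMUSG00000027276.7, chr2:137081456-137116644, minus strand) had 1 peak in each replicate over the whole region, at the promoter. The site, chr2:137114059-137117777, had folds of 10.2 (interval 6.53 to 15.2) and 10.8 (7.52 to 15.2), the closest match between replicates among the promoter sites after Rbpj. It spanned 3719 bp, and its summits lay apart, 354 bp before the start in replicate 1 and 2210 bp inside the gene in replicate 2.

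Dll1 (ENSMUSG00000014773.13, chr17:15367354-15376872, minus strand), the ligand that newborn neurons present to progenitors, was bound over a stretch around and before its start. The main promoter site, chr17:15375235-15377021, had folds of 8.39 and 9.53, with summits 79 and 68 bp inside the start, the nearest to a start among the promoter sites of the 10 genes. Next to it, the site chr17:15377485-15378076 had folds of 8.39 and 7.23. It shares the single broad peak of replicate 1 with the main site, so its replicate 1 fold is not a separate measurement. An upstream site, chr17:15380176-15381098, lay about 4 kb before the start, with folds of 6.19 (13 fragments) and 6.57 (19 fragments), both close to the minimum. A pair of intronic peaks had folds of 7.07 and 5.59 and was not kept, since replicate 2 fell below 6.

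Dll3 (ENSMUSG00000003436.11, chr7:28293553-28302238, minus strand), a divergent ligand that acts on Notch inside the same cell, had little binding of its own. Its only reproducible site, chr7:28311080-28312949, had folds of 7.95 and 10.2 but lay upstream of the gene, 177 bp from the start of Timm50, a subunit of the mitochondrial protein import machinery. At the Dll3 start itself, replicate 1 had no peak and replicate 2 had one with a fold of 3.94 on 11 fragments. Replicate 2 also had a narrow intronic peak of 321 bp with a fold of 6.24, with no counterpart in replicate 1. The site next to Timm50 is counted for Dll3 by position alone.

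Rbpj, the factor through which all Notch receptors act, had one of the highest promoter sites of the group. The gene (ENSMUSG00000039191.12, chr5:53466152-53657362, plus strand) has protein-coding transcripts with 6 starts. The site, chr5:53588331-53592190, covers the cluster of 4 starts from 53590214 to 53590981, including the sequence printed above. Its folds were 12.8 (28 fragments, interval 8.66 to 18.3) and 13.5 (40 fragments, 9.72 to 18.2), and the replicates differed by less than their counting error. The lower fold stood at the 74.8th percentile of the sites near a start. The replicate 1 summit lay 1346 bp before the nearest start and that of replicate 2 lay 103 bp before it. The starts at 53466152 and 53555834 had no site. Between them, overlapping peaks of both replicates reached folds of 4.42 and 5.26, below the minimum.

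Of the target genes, Hes1 had the broadest site. Hes1 (ENSMUSG00000022528.8, chr16:30064384-30067796, plus strand) codes for the repressor that oscillates in neural progenitors. The site, chr16:30062759-30067823, was 5065 bp long, longer than 98.5% of all reproducible sites, and covered the whole gene. Its folds were 12.8 (28 fragments, interval 8.66 to 18.3) and 15.8 (47 fragments, 11.7 to 20.9). The summits were 100 bp apart, 494 and 394 bp before the start of the coding transcript at 30065340, within the span of a noncoding transcript of the gene that begins at 30064384. Weaker peaks past the 3′ end had folds of 3.94 to 5.26 and were not kept.

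Hey1 (ENSMUSG00000040289.8, chr3:8663359-8667256, minus strand), a repressor of the related Hey family, had a promoter site at chr3:8666199-8668258 with folds of 11.0 (24 fragments, interval 7.24 to 16.2) and 17.4 (52 fragments, 13.1 to 22.7). The replicate 2 fold was the higher, as at Notch1, and the intervals overlap. The replicate 1 summit lay 441 bp before the start and the replicate 2 summit 353 bp inside the gene.

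Hes5 (ENSMUSG00000048001.7, chr4:154960923-154962371, plus strand), a direct Notch target in neural stem cells, fell on either side of the minimum. Its promoter peak had a fold of 5.74 in replicate 1 (12 fragments, interval 3.18 to 9.70) and 6.90 in replicate 2 (20 fragments, 4.34 to 10.5). The replicate 1 peak was 1 fragment short of the 13 needed, so the absence of Hes5 from the genes with a promoter site rests on the threshold and on that library. Both peaks cover the promoter sequence with the 2 Rbpj cores. The only reproducible site of the Hes5 region, chr4:154963428-154965089, had the highest lower fold of the 15 sites in the 10 regions. Its folds were 16.3 (36 fragments, interval 11.6 to 22.5) and 17.4 (52 fragments, 13.1 to 22.7), the latter equalled at the promoters of Notch1 and Hey1. The site of the Hes5 region lies past the 3′ end of Hes5 and 109 bp from the start of Pank4, a gene of the pantothenate kinase family, with summits 11 bp apart. In each replicate its fold was more than that of the Hes5 promoter, and the intervals of the 2 peaks do not overlap in either library.

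Over all 10 regions there were 15 reproducible sites, 8 promoter and 7 distal. Of the 7 distal sites, 4 were intronic (in Notch1 and Notch2), 1 was upstream of Dll1, and the other 2 were at the starts of Timm50 and Pank4. The lower fold of the 2 replicates ran from 6.19 to 16.3 with a median of 9.53, against a median of 8.84 over all sites, and 8 of the 15 exceeded that median. The sites near the 10 genes were thus of middling height. At promoters, Rbpj and Hes1 had the highest lower fold (12.8 each), followed by Hey1 (11.0), Notch1 and Jag1 (10.2 each), and Notch2 and Dll1 (8.39 each). Each neighbouring pair in this order overlapped in its counting intervals, and the order turned in replicate 2 alone, where Notch1 and Hey1 (17.4 each) stood above Hes1 (15.8) and Rbpj (13.5). Replicate 2 had the higher fold at 12 of the 15 sites (80.0%), against 75.1% of all sites, so a higher replicate 2 fold was the common case across the series. When each fold was divided by the median fold of its chromosome, the order at the top became Hey1, Hes1 and then Rbpj.

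**Figure D3:**
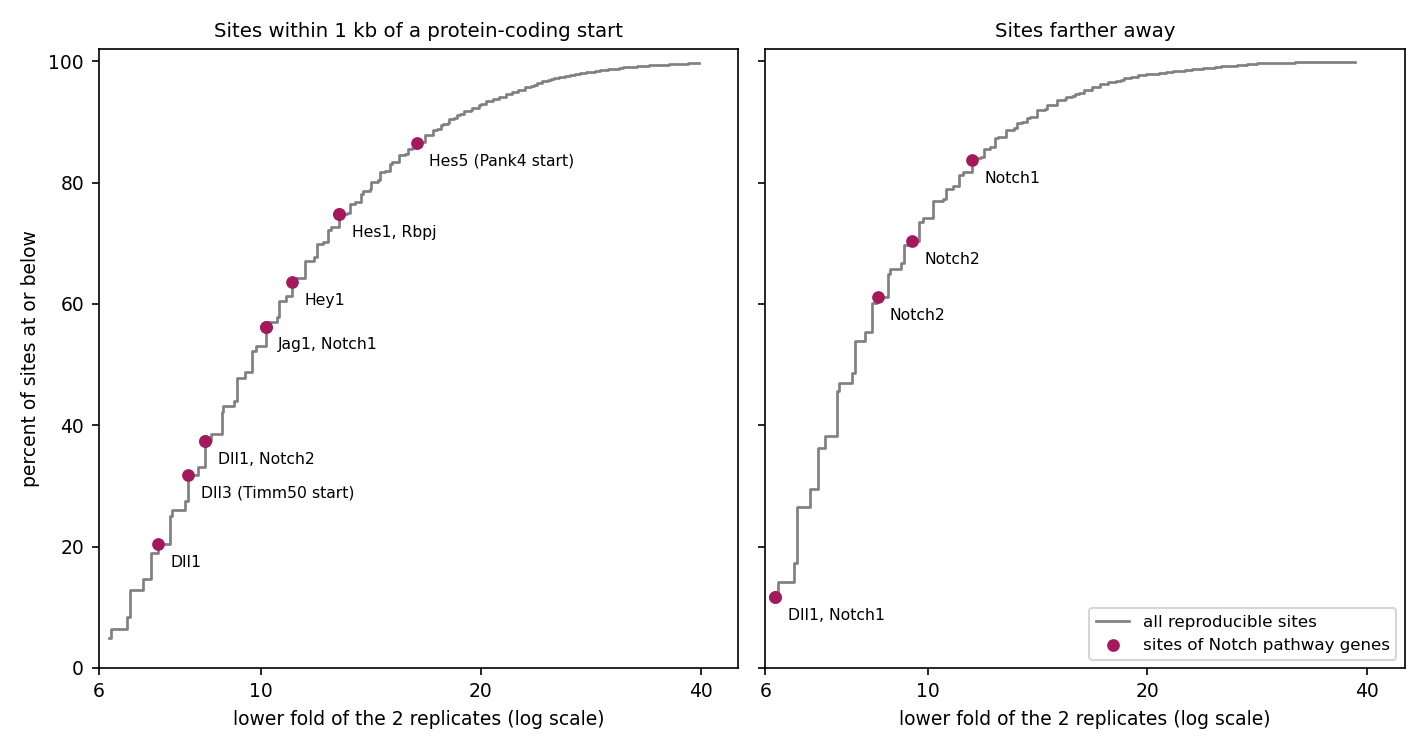
Cumulative share of all reproducible sites at or below a given lower fold (log axis), for sites near a protein-coding start (left) and sites farther away (right), with the sites of the 10 gene regions marked. The marked promoter sites run from 7.23 (Dll1) to 12.8 (Hes1 and Rbpj), the Pank4 start in the Hes5 region stands at 16.3, and the strongest intronic site of Notch1 stands at 11.5.

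The sequences at these sites were searched on both strands for letters of the factors involved. RefSeq entries were found for 8 of the 10 genes (10 entries, those of Hes1 and Hey1 were not among them). The Rbpj core TGGGAA was in 3 of the 10 entries, 1 of Hes5 and 2 overlapping entries of Rbpj, against 21.6% of 32851 RefSeq promoters, and the longer GTGGGAA, which contains the core, was in Hes5 alone, against 5.42%. The ETS core CCGGAAG was in none of the 10 entries (6.91% of promoters). In the middle 200 bases of 13 sites (all but those of Hes1 and Hey1), TGGGAA was found in 2, at Rbpj and upstream of Dll1, against 15.5% of all sites. CCGGAAG was found in 0 of 13 against 6.42%, and the forkhead motifs TGTTTAC and TATTTAC in 0 of 13 against 1.94% and 1.42%. The N-box CACNAG was in 4 of 13 (30.0% of all sites), 3 of them in Notch1 and 1 in Jag1, and the E-box CANNTG was in 10 of 13 (53.1% of all sites). These shares over 13 windows differ from those of all sites by only a few windows and are a description of letters, not of bound factors.

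Binding at the wider pathway was recorded at 62 other genes listed by their role. Of these, 42 (67.7%) had a reproducible promoter site, against the 39.2% of all protein-coding genes given above. A distal site alone was found at 4 (Notch4, Dtx1, Hdac1 and Tle2), and 16 had none. Before any minimum, 54 of the 62 had overlapping promoter peaks of both replicates, against 50.9% of all genes. The median lower fold of the 42 was 9.79. By role, all 7 co-activators that assemble with Rbpj had a promoter site, as did 9 of 10 proteases and gamma-secretase genes, 4 of 5 glycosyltransferases, 10 of 13 co-repressors, 7 of 12 genes of ubiquitin transfer and trafficking and 4 of 7 targets. Among the remaining ligands, only Dner of 4 had one, and the receptor Notch4 had none. Of the 42 promoter sites, 11 also lay within 1 kb of the start of another protein-coding gene, 4 of them among the 9 of the proteases, and are counted for the pathway gene by position. The near-identical copies Aph1b and Aph1c are among the 9, and reads could be split between them, so each is uncertain.

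By the lower fold of the 2 replicates, the highest of these promoter sites were at Ncstn, a subunit of gamma-secretase, with folds of 16.3 and 21, and at Ctbp1, a co-repressor, with 16.3 and 18.7. The Ncstn site also lies at the start of Copa, a gene of vesicle coat protein. Then came Tle3, a Groucho co-repressor used by Hes proteins, with 15.9 and 18.1, Maml3, a Mastermind co-activator, with 15.5 and 16.4, and the acetyltransferase gene Ep300 with 14.6 and 16.1.

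Among the proneural genes, which Hes and Hey proteins repress, none of the 3 examined here had a reproducible site, yet all 3 had overlapping promoter peaks in both lists before the minimum. Neurog1 had folds of 6.63 and 5.91, Neurog2 6.63 and 5.59, and Atoh1 5.30 and 3.61. Neurog1 and Neurog2 passed in replicate 1 and failed in replicate 2. A pass in 1 replicate alone was also seen at Mfng, a Fringe glycosyltransferase (7.51 and 5.91), the deacetylase gene Hdac1 (6.63 and 5.26) and the target Hey2 (5.74 and 6.24). The ligands Dll4 (4.42 and 3.61) and Jag2 (4.86 and 4.60), the protease gene Furin (4.86 and 3.61), the ligase genes Dtx2 (3.98 and 5.59) and Dtx3 (4.86 and 4.60) and the co-repressor gene Tle2 (5.74 and 3.29) were below 6 in both. No overlapping promoter peaks were listed at Notch4, Dlk1, Neurl1a, Neurl1b, Dtx1, Rbpjl, Hes2 and Heyl. Of the 20 genes without a promoter site, 12 thus had promoter peaks in both lists that the minimum removed.

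**Figure D4:**
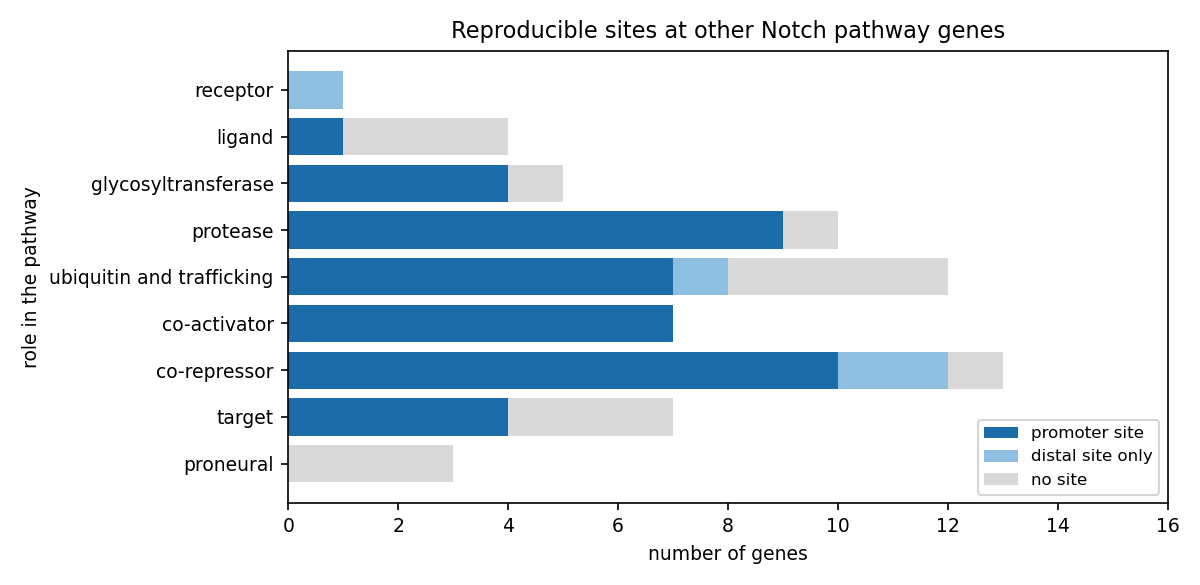
Number of the 62 other Notch pathway genes in each role with a reproducible promoter site (dark), a distal site alone (light) or none (grey). All 7 co-activators had a promoter site and none of the 3 proneural genes had a site.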

How the data were processed

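CUT&RUN peak lists of 4 libraries (2 Foxr2 p53LOF, 2 V5 control) were used. Per the submitters' processing notes and the methods, the authors trimmed reads with Trimmomatic (0.39), aligned them to mm10 with BWA (0.7.17), removed duplicates with Picard (2.26.6) and called peaks in each library with MACS2 (2.2.7.1). HOMER (4.11) is also named. No control library is named for the peak calling. The deposited fold enrichment is a ratio made by the authors within each library, and the −log10 p and q values deposited beside it were made the same way. The lists hold peaks that the published filter drops, so it was applied here. The authors' further step on open chromatin was not repeated. A peak list shows no read total, and fragments at each summit were recovered from the fold and its background.

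Peaks were assigned to genes of GENCODE release M21 with Python 3.11.15 and pandas 2.3.3, and genome sequence was read with pysam 0.24.0. Positions count from 1. The steps were tested on simulated data. The genes and lists were chosen with earlier results of these data known. All 10 genes are named. One gene of the wider pathway list is not reported here. Of the other pathway genes, those without a promoter site and the 5 with the highest lower fold are named, as is a gene whose start is nearest to a distal site. Beyond these, Dner, Aph1b, Aph1c and Copa were named after their values were seen. Whether the replicates were separate cultures is not given in the sources used here.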

Additional observations from a re-analysis of the deposited data

How the results depend on the processing

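The counts of genes and sites were recomputed under other settings, and 7 of 74 recomputed counts moved by more than 1.5 times. A minimum fold of 10 left distal sites at 2 genes (Notch1 and Hes5; 12.4% of all genes), 7 sites in the 10 regions and promoter sites at 20 of the 62 other pathway genes (19.7% of all genes). With no minimum on fold or q, distal sites were at 8 genes (40.9% of all genes) and there were 27 sites. Distal sites were at 2 genes (Notch1 and Notch2; 8.54% of all genes) when the gene body alone was searched. They were at 3 (11.0% of all genes) when sites at another gene's start were left out, which removed Dll3 and Hes5. Genes with a promoter site numbered 5 at a minimum fold of 10 (the same 19.7%), which removed Notch2 and Dll1. They also numbered 5 when told by the replicate 1 summit, which moved Notch1 and Rbpj out and gave 6 genes with a distal site, so the order of promoter and distal counts turned (37.4% and 26.9% of all genes). They numbered 8 without Foxr2 p53LOF replicate 1, which added Hes5. By the fold minimum alone, 43.9% of all genes had a promoter peak in replicate 2. Leaving out a control replicate could not change the counts of the 10 genes, since neither control list has a peak there. No paired analysis was possible because no result comes from a test. The limits are 2 replicates of 1 line, folds near 6 that rest on 13 to 19 fragments, and positions that do not show which gene a site acts on.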
